A study of Ovis aries with 32 samples.

Results

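CINP, MOBK1A and NME2 are 3 genes with roles in growth control, and each was measured by 1 probe of 60 bases on a sheep array. The probes were chosen by their identifiers, A_70_P031041 for CINP, A_70_P038601 for MOBK1A and A_70_P069041 for NME2, and they are 3 of the 15008 probes of the array. They entered the selection because the comparison of CORT with Control lambs in the LV had placed these genes on the study's list of genes higher in CORT. The LV differences of these 3 genes between CORT and Control lambs are therefore a description without a test, while the IVS arrays were not used in the choice.

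The study asked how excess cortisol in the pregnant ewe affects gene expression in the heart of the newborn lamb. CORT ewes received cortisol at 0.5 mg/kg/day, overnight, from day 115 of gestation until delivery, and Control ewes received no infusion. RNA was taken at an age of 14 days from the left ventricular free wall (LV) and the septum between the ventricles (IVS) of 8 CORT and 8 Control lambs, and each of the 32 RNA samples was hybridised to 1 array. The 4 groups were thus LV Control, LV CORT, IVS Control and IVS CORT, all from untreated lambs whose exposure came through the mother. The breed was black-faced sheep, and the Control lambs included a pair of twins, so not every lamb of that group had a mother of its own. The CORT ewes also bore a pair of twins, and the labels do not say which lambs these were. The IVS came from the same lambs as the LV and is therefore no second set of animals, and the sex of each lamb is not in the labels. The p-values for CORT against Control measure the spread between lambs. Those for the tissues come from a fit with slide as a block and no term for the lamb.

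CINP is a protein that binds the cyclin-dependent kinase CDK2 and takes part in DNA replication and in the ATR checkpoint, which answers stalled replication forks. MOBK1A is an older spelling for a MOB1 protein, a cofactor that activates the LATS kinases of the Hippo pathway, which restrains cell proliferation and organ size by holding the coactivator YAP in the cytoplasm. NME2 is a nucleoside diphosphate kinase, which passes phosphate between nucleotides and so supplies the triphosphates for nucleic acid synthesis, and it is also known as a factor that binds the MYC promoter. Heart muscle cells of the lamb have largely left the cell cycle by birth, so growth of the ventricle after birth is mostly growth in cell size.

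The sequences of the 3 probes, and the tags from which they were designed, link these measurements to a transcript. The sequences are given here, 5′ to 3′ as in the deposited array files, so that each can be placed. No letter is capitalised because no motif or mismatch was scored.
CINP: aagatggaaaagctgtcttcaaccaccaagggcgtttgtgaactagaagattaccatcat
MOBK1A: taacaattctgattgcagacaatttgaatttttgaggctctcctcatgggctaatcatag
NME2: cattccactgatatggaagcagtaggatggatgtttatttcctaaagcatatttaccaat

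The files list all 3 probes as unmapped and name only the expressed sequence tag from which each was designed, so no chromosome, position or exon can be given. The gene names rest on values: in the deposited matrix of 8807 LV probes, exactly 1 probe per gene had the fold change and the p listed for that gene by the study, within 0.0051 for the fold change and 0.0005 for the p. With the fold change alone, 4 probes matched for CINP, 7 for MOBK1A and 15 for NME2. MOB1A and MOB1B are near-identical genes and the older symbol MOBKL1A belongs to the second of them, so which of the pair the MOBK1A probe detects is not settled here, and the same holds for NME2 beside its close relative NME1. The NME2 probe had 35% G and C bases, the MOBK1A probe 36.7% and the CINP probe 41.7%, against a median of 43.3% over all probes of the array. Every one of the 3 reading frames of the NME2 probe, read as printed, holds a stop codon, as do 2 of 3 frames of the CINP and of the MOBK1A probe. The longest run of bases shared with any other probe was 13 for CINP and 15 for each of MOBK1A and NME2, and no other probe of the array was designed from the same tags, so each gene rests on a single spot per array.

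Signal was sufficient for all 3. Each probe was well above background on all 16 arrays of both tissues, and on none was it saturated or marked as an outlier spot by the scanner software. Mean spot intensity, in arbitrary scanner units before normalization, lay between 376 and 1346 for CINP in the LV and between 445 and 1285 in the IVS. For MOBK1A the same range was 206 to 452 in the LV and 231 to 506 in the IVS. For NME2 it was 15249 to 45980 in the LV and 15586 to 48767 in the IVS. Array medians of spot intensity spanned 131 to 332, and an array had 59.7 to 80.4% of its probes well above background. The LV arrays lay on 2 slides, each with 4 Control and 4 CORT arrays. The IVS arrays lay on 3 slides, numbered 3 to 5, with 2 Control and 2 CORT arrays on slide 3, 3 and 2 on slide 4, and 3 and 4 on slide 5.

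The samples are pieces of whole tissue, in which fewer cells of a type and less RNA per cell cannot be told apart. Of the 17 cardiomyocyte markers only myoglobin (MB) has a named probe, so the label of heart muscle could not be firmly checked. The normalized level of MB was 18.03 in the LV Control and 18.22 in the IVS Control arrays on the log2 scale. CORT and Control arrays differed in MB by 0.01 in the LV and 0.06 in the IVS (log2, limma, adjusted p = 0.999 and 0.993). Of the markers of other cells, 2 of 7 for fibroblasts, 3 of 6 for endothelium, 1 of 4 for smooth muscle, 2 of 5 for leukocytes, 1 of 4 for erythrocytes and 3 of 4 for adipocytes had a named probe. In the IVS none of those tested had an unadjusted p under 0.05. The closest was DCN of fibroblasts, higher in CORT by 0.18 (SE 0.09, limma, unadjusted p = 0.0533), while COL3A1, a collagen of fibroblasts, differed by 0.10. In the LV COL3A1 and CD14, a receptor of monocytes, were lower in CORT at an unadjusted p under 0.05. Their differences were -0.28 and -0.16 (limma, adjusted p = 0.999), and 2.20% of all LV probes were also lower at that threshold. The other marker of each of these lists was not lower in the LV: DCN differed by 0.08 and CD3E of leukocytes by 0.15. The largest marker difference in the LV was that of CNN1 of smooth muscle at 0.44 (SE 0.37), and PECAM1 of endothelium differed by 0.15 and HBB of erythrocytes by 0.24, none past the threshold. The part of these cell types in the LV and IVS values was not tested.

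All 3 genes were higher in CORT than in Control lambs in the LV, by 0.28 to 0.41 on the log2 scale. The same direction was found in the IVS for each, with differences of 0.26 to 0.45, none of which passed the test. The levels below are normalized log2 intensities, normalized separately in each tissue, with n = 8 lambs in each group.

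CINP in the LV had a lowest Control array at 8.95, a Control median of 9.51 and a highest Control array at 10.13, while the CORT lambs spanned 9.61 to 10.15 around a median of 9.997. All 8 CORT arrays were above the Control mean, but 2 of them only were above the highest Control array, and 5 Control arrays were below the lowest CORT array. Control lambs averaged 9.56 ± 0.45 (SD, n = 8) and CORT lambs 9.97 ± 0.17 (SD, n = 8), a difference of 0.41 (SE 0.16) or 1.33-fold. On slide 2 the groups did not overlap, with 4 CORT arrays from 9.61 to 9.98 above 4 Control arrays from 8.96 to 9.51. On slide 1 they did, with 2 of 4 CORT arrays above every Control array of the slide. The difference was 0.32 within slide 1 and 0.51 within slide 2.

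MOBK1A in the LV had a lowest Control array at 7.82, a Control median of 8.03 and a highest Control array at 8.34, while the CORT lambs spanned 7.91 to 9.11 around a median of 8.34. The CORT arrays reached higher without leaving the Control range at its lower end: 4 were above the highest Control array, and 1 CORT array was below the Control mean. Control lambs averaged 8.05 ± 0.21 (SD, n = 8) and CORT lambs 8.40 ± 0.40 (SD, n = 8), a difference of 0.34 (SE 0.15) or 1.27-fold. Of the 3 genes this one depended most on the slide in the LV, with a difference of 0.54 within slide 1 and 0.14 within slide 2. In the LV its deviations from the group means ran against the median spot intensity of the array (Pearson r = -0.60, Spearman rho = -0.67, n = 16 arrays). The median spot intensity had a median of 186 over the LV Control and 167 over the LV CORT arrays, and the part of this in the MOBK1A difference was not tested.

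NME2 in the LV had a lowest Control array at 14.35, a Control median of 15.12 and a highest Control array at 15.20, while the CORT lambs spanned 15.08 to 15.43 around a median of 15.26. The separation was the clearest of the 3 genes by count, with 7 of 8 CORT arrays above the highest Control array, while 3 Control arrays lay below the lowest CORT array. Control lambs averaged 14.98 ± 0.28 (SD, n = 8) and CORT lambs 15.26 ± 0.10 (SD, n = 8), a difference of 0.28 (SE 0.10) or 1.21-fold. Control replicate 2 alone was at 14.35, with the next Control array at 14.88, and without it the difference was 0.19. Within slide 1 the difference was 0.39 and within slide 2 it was 0.17.

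**Figure D1:**
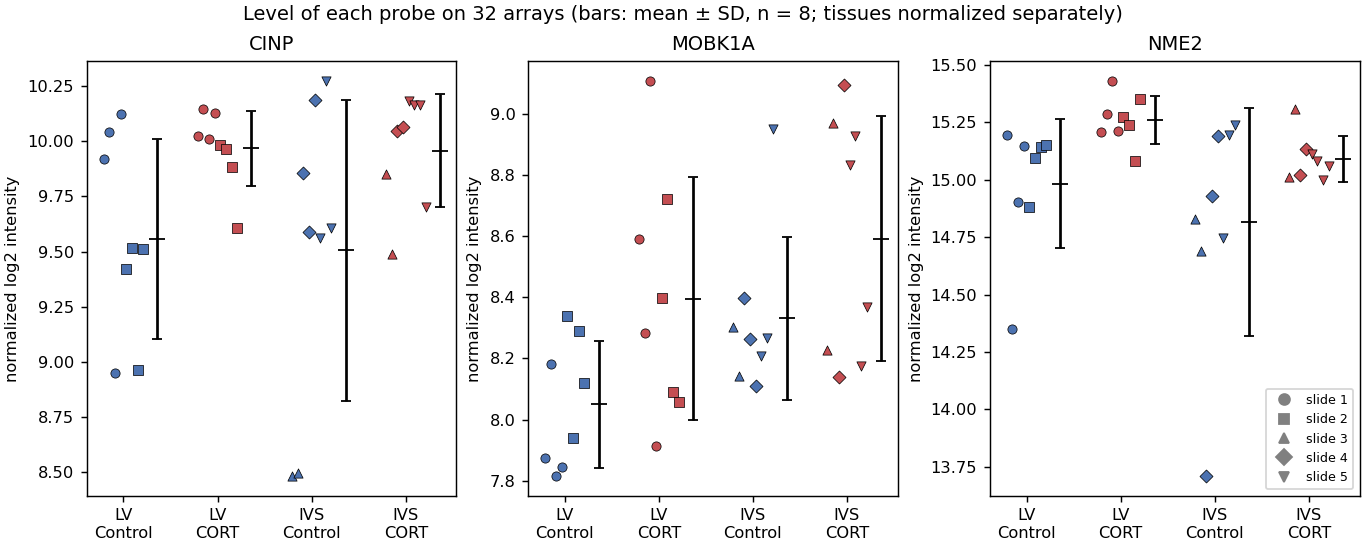
Normalized log2 intensity (vertical axis) of the CINP, MOBK1A and NME2 probes on the 32 arrays, by tissue and treatment (horizontal axis), with Control arrays in blue, CORT arrays in red and marker shapes for the slides. Each point is 1 lamb, and the bars give the mean ± SD of 8 arrays. The 2 IVS Control arrays of slide 3 sit at 8.48 and 8.50 for CINP, and single low Control arrays stand at 14.35 and 13.71 for NME2.

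For scale, 3.85% of the 11518 LV probes tested had an unadjusted p under 0.05 in either direction (limma, two-sided), and 1.66% were past that threshold and higher in CORT. No LV probe passed after Benjamini-Hochberg adjustment in limma, against 444 at an unadjusted p under 0.05. The median difference of all LV probes was 0.00 on the log2 scale, and 50.9% of them were higher in CORT. Nothing is read from these shares for the 3 genes, since this comparison chose them.

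The IVS asks the same question in a part of the heart that was not used in the choice. Of the 11685 probes tested there, 3.59% had an unadjusted p under 0.05 and 1.39% were also higher in CORT, and 0 of the 3 genes were among them. No IVS probe passed after adjustment in limma, against 419 at an unadjusted p under 0.05. Without slide 5, 1 probe passed, which is none of the 3 genes. The median difference of all IVS probes was -0.01, and 47.2% of them were higher in CORT.

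CINP in the IVS had a lowest Control array at 8.48, a Control median of 9.60 and a highest Control array at 10.27, while the CORT lambs spanned 9.49 to 10.18 around a median of 10.06. The CORT arrays lay entirely inside the Control range, since 2 Control arrays were below and 2 above all of them. Control lambs averaged 9.51 ± 0.68 (SD, n = 8) and CORT lambs 9.96 ± 0.25 (SD, n = 8). The difference was 0.45 (SE 0.24, 95% interval -0.05 to 0.95), or 1.37-fold with an interval of 0.968 to 1.93-fold, and it did not pass the test (limma, two-sided, unadjusted p = 0.0734, adjusted p = 0.993; two-sided exact permutation p = 0.110 over 12870 assignments).

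Both low Control arrays for CINP came from slide 3, at 8.48 and 8.50, and they were the only Control arrays on that slide. The CORT arrays of slide 3, at 9.49 and 9.85, were also below the median of the CORT group, so the slide as a whole stood low, with a mean of 9.08 against 9.95 on each of the other two slides. The difference was 1.18 within slide 3, 0.18 within slide 4 and 0.24 within slide 5. Without slide 3 it was 0.21 (limma, unadjusted p = 0.158). With the slide as a block the difference stayed at 0.46 and its SE fell to 0.16 (limma, unadjusted p = 0.0113, adjusted p = 0.638). Under that block 4.01% of all IVS probes were past an unadjusted p of 0.05 and higher in CORT, and CINP was among them. CINP also ran against the median spot intensity in the IVS (r = -0.68, rho = -0.46, n = 16 arrays) and against the share of probes well above background (r = -0.51, rho = -0.57), and the part of array quality in its level was not tested.

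MOBK1A in the IVS had a lowest Control array at 8.11, a Control median of 8.27 and a highest Control array at 8.95, while the CORT lambs spanned 8.14 to 9.09 around a median of 8.60. The values left a gap between 8.40 and 8.83, with 11 arrays below it and 5 above it, of which 4 were CORT and 1 was Control. Control lambs averaged 8.33 ± 0.27 (SD, n = 8) and CORT lambs 8.59 ± 0.40 (SD, n = 8). The difference was 0.26 (SE 0.16, 95% interval -0.08 to 0.60), or 1.20-fold with an interval of 0.948 to 1.52-fold, and it did not pass the test (limma, two-sided, unadjusted p = 0.122, adjusted p = 0.993; two-sided exact permutation p = 0.173). It was 0.37 within slide 3, 0.36 within slide 4 and 0.10 within slide 5. The single Control array above the gap was replicate 8 at 8.95, and without it the difference was 0.35 (limma, unadjusted p = 0.0310, adjusted p = 0.653).

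NME2 in the IVS had a lowest Control array at 13.71, a Control median of 14.88 and a highest Control array at 15.24, while the CORT lambs spanned 15.00 to 15.31 around a median of 15.07. All 8 CORT arrays were above the Control mean and 5 Control arrays were below the lowest CORT array, but 1 CORT array only was above the highest Control array. Control lambs averaged 14.82 ± 0.50 (SD, n = 8) and CORT lambs 15.09 ± 0.10 (SD, n = 8). The difference was 0.27 (SE 0.17, 95% interval -0.08 to 0.63), or 1.21-fold with an interval of 0.947 to 1.55-fold, and it did not pass the test (limma, two-sided, unadjusted p = 0.120, adjusted p = 0.993; two-sided exact permutation p = 0.107). It was 0.40 within slide 3 and 0.47 within slide 4, but 0.0011 within slide 5, which held 7 of the 16 arrays. Control replicate 3 stood at 13.71, and without it the difference was 0.12. NME2 ran against the median spot intensity in the IVS (r = -0.49, rho = -0.70, n = 16 arrays), and the part of this in its level was not tested.

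**Figure D2:**
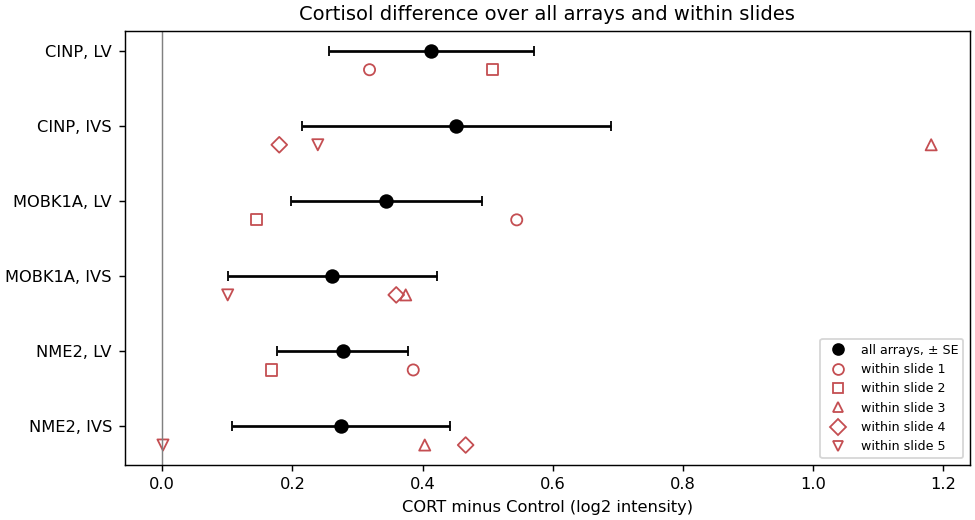
Difference between CORT and Control arrays in log2 intensity (horizontal axis) for each gene and tissue, over all 16 arrays of the tissue (filled circles, bars ± SE) and within each slide (open markers). All within-slide values lie above 0, from 0.0011 for NME2 on slide 5 to 1.18 for CINP on slide 3.

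Ways of processing the arrays moved the IVS differences within limits and kept their sign. Over 12 alternatives, those without a slide included, the difference ranged from 0.21 to 0.64 for CINP, from 0.21 to 0.39 for MOBK1A and from 0.16 to 0.45 for NME2. The unadjusted p was under 0.05 under 4 of the 12 alternatives for CINP, 2 for MOBK1A and 0 for NME2. Past an unadjusted p of 0.05 and higher in CORT were 1.86% of all IVS probes under cyclic loess, 1.37% with arrays weighted by quality, 4.01% with the slide and 2.65% with the replicate number as a block, and 3.27% with slide block and weights together. Leaving out 1 array brought CINP past that threshold without Control replicate 5, Control replicate 7 or CORT replicate 2, where 2.44%, 2.08% and 1.32% of all IVS probes were past it and higher. MOBK1A passed without Control replicate 8, where 2.98% were. The lowest adjusted p over these alternatives was 0.522 for CINP, 0.463 for MOBK1A and 0.472 for NME2.

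**Figure D3:**
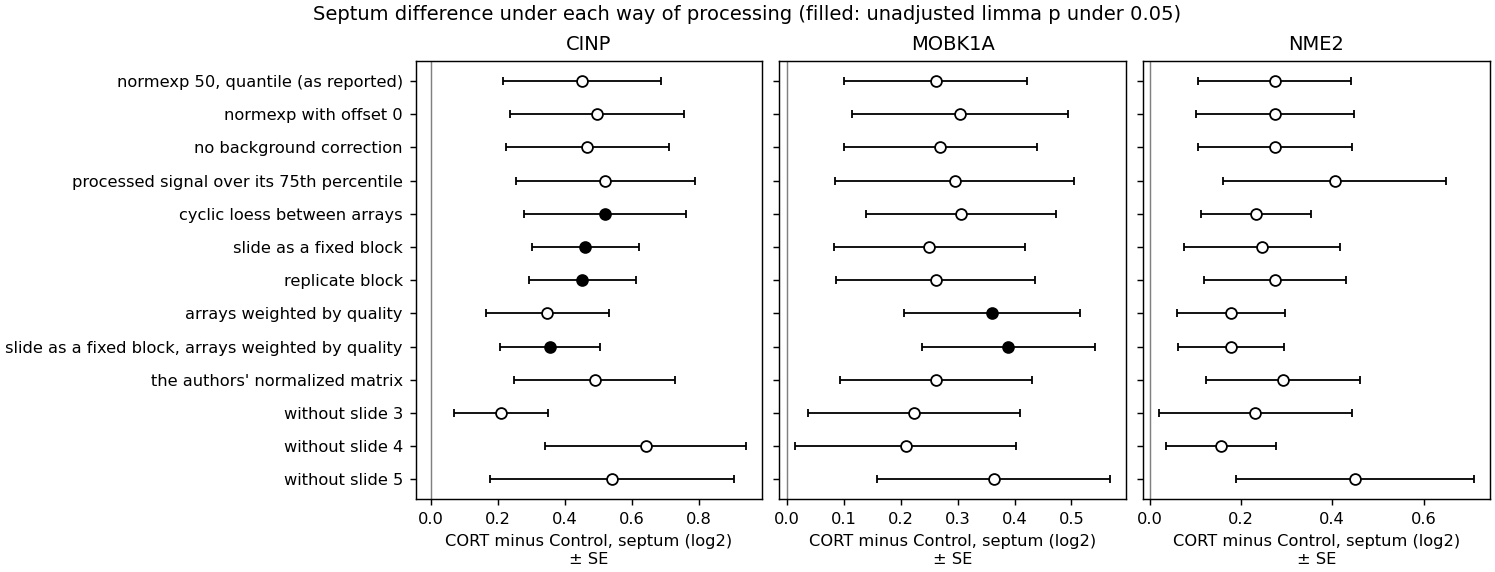
Difference between CORT and Control IVS arrays in log2 intensity with its SE (horizontal axis) for the 3 genes under each way of processing (vertical axis), from limma. Filled circles mark an unadjusted p under 0.05, which occurred under 4 alternatives for CINP, 2 for MOBK1A and 0 for NME2, and each difference lies above 0.

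None of the 3 genes differed between the tissues beyond its error when all 32 arrays were normalized together and averaged over both treatments. IVS minus LV was -0.22 for CINP (SE 0.23, 95% interval -0.68 to 0.24, limma, adjusted p = 0.791), with means of 9.66 and 9.84. It was 0.10 for MOBK1A (SE 0.21, interval -0.32 to 0.52, adjusted p = 0.926), with means of 8.39 and 8.29. It was -0.13 for NME2 (SE 0.19, interval -0.51 to 0.24, adjusted p = 0.870), with means of 14.97 and 15.10. The 2 tissues lay on slides of their own, so that tissue and slide cannot be told apart. The fit took slide as a random block and had no term for the lamb, although both tissues came from the same lambs. Its SE therefore holds differences between slides. The means are plain averages over arrays, so the fitted differences need not equal the gaps between them. Without the slide block the CINP difference was -0.18 (SE 0.15). In the fit with the slide block 0.148% of the 11520 probes passed the adjusted threshold, and 0 of the 3 genes did.

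The spread between lambs differed between the groups in opposite ways for these genes. CINP varied more among Control than among CORT lambs, with an SD 2.67 times as large in the LV and 2.68 times in the IVS. NME2 did so as well, with ratios of 2.72 in the LV and 4.93 in the IVS. MOBK1A varied less among Control lambs, with ratios of 0.522 in the LV and 0.665 in the IVS. Across all probes the Control SD was the larger one for 51.8% in the LV and 65.2% in the IVS, with median ratios of 1.02 and 1.20. A ratio higher than that of NME2 was found for 2.05% of LV and 0.448% of IVS probes, and a ratio higher than that of CINP for 2.19% and 5.65%. A ratio lower than that of MOBK1A was found for 7.00% of LV and 10.3% of IVS probes. These shares describe the ratios and are no test.

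Parts of the pattern rested on few arrays. Without Control replicate 2 the ratio for NME2 in the LV was 1.22, and without Control replicate 3 its ratio in the IVS was 2.31. For CINP in the IVS the ratio within slides was 1.46, and 45.9% of all probes then had a higher one, while in the LV the ratio within slides was 3.24. For MOBK1A the IVS ratio was 0.244 without Control replicate 8.

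**Figure D4:**
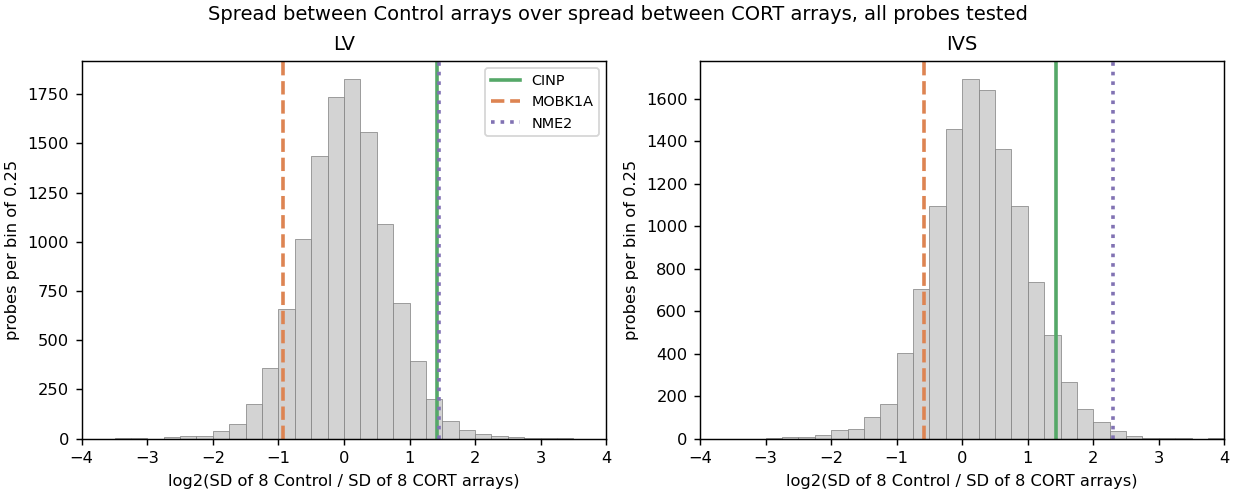
Number of probes (vertical axis) by log2 of the ratio of the SD of 8 Control arrays to the SD of 8 CORT arrays (horizontal axis), in the LV and IVS, with the ratios of CINP, MOBK1A and NME2 as vertical lines. CINP and NME2 lie on the right, at 1.42 and 1.45 in the LV and 1.42 and 2.30 in the IVS, and MOBK1A on the left, at -0.94 and -0.59.

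Most pairs of the 3 genes varied from lamb to lamb with little relation to each other, and the exception by rank was MOBK1A with NME2 in the IVS. After the group means were removed, CINP and MOBK1A had a Pearson r of -0.04 in the LV and 0.03 in the IVS (Spearman rho -0.02 and 0.10, n = 16 arrays in each tissue). CINP and NME2 had an r of -0.20 in the LV and 0.08 in the IVS (rho 0.16 and 0.22). MOBK1A and NME2 had an r of 0.02 in the LV and 0.19 in the IVS (rho 0.09 and 0.52), and in the IVS r was 0.00 without the 2 arrays farthest from the median of MOBK1A. Without Control replicate 3, the array far below the rest for NME2, this pair had an r of 0.45 and a rho of 0.66 (n = 15). Of all IVS probes 1.57% had a higher rho with MOBK1A than NME2 did. This share was computed only for this pair, picked for its high rho. No such share was computed from the side of NME2, whose r values in the IVS spread wider. The LV values of r also moved with the normalization, to -0.45 for CINP and NME2 under cyclic loess and to 0.28 for MOBK1A and NME2 with the processed signal. All 6 values of r lie within the middle 95% of the correlations of the same probe with the 11314 other probes tested in both tissues. For CINP this middle range spanned -0.47 to 0.46 in the LV and -0.75 to 0.73 in the IVS. For MOBK1A this middle range was -0.57 to 0.54 in the LV and -0.52 to 0.53 in the IVS, and for NME2 it was -0.55 to 0.58 and -0.74 to 0.67. Probes of 1 array share its RNA, labelling and slide, so these correlations are a description with no test.

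**Figure D5:**
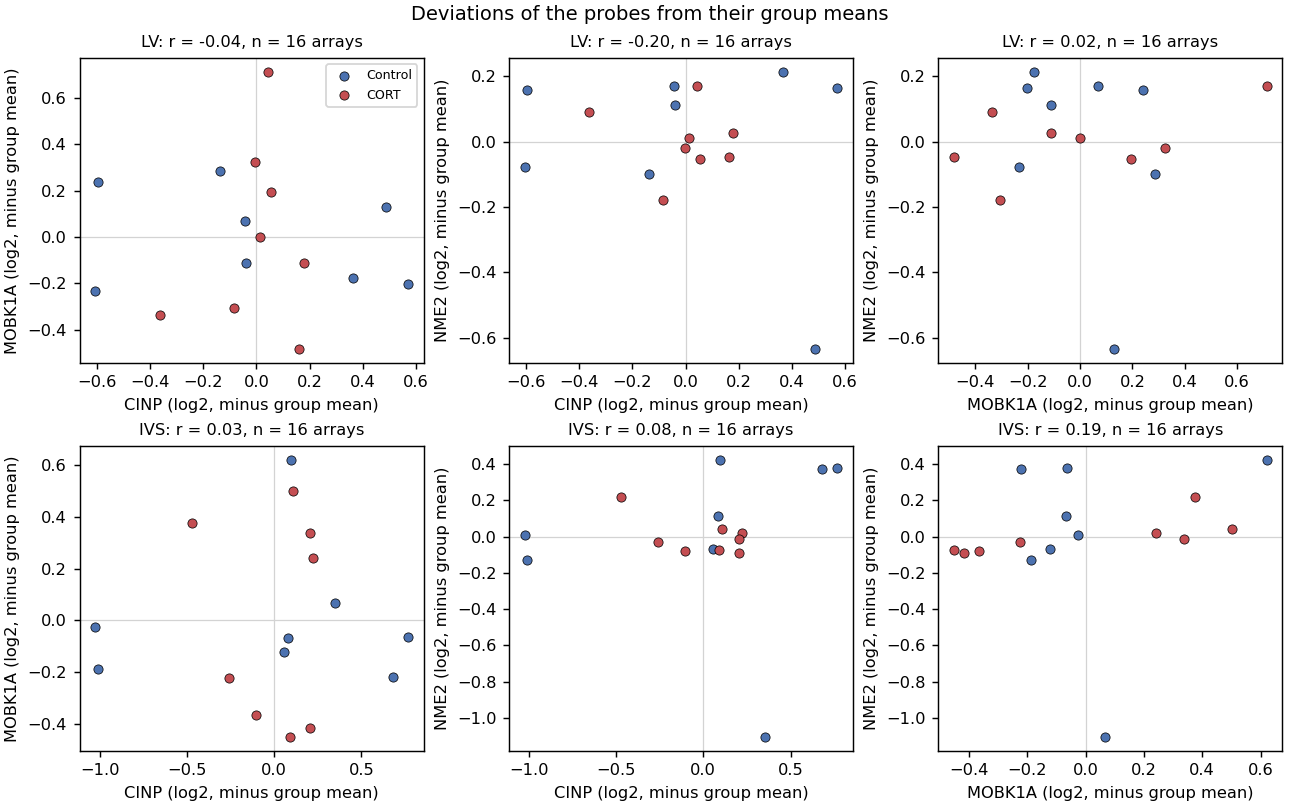
Deviation of each array from its group mean in log2 intensity for the 3 pairs of genes (columns; axes name the gene), in the LV (upper row) and IVS (lower row), with Control arrays in blue and CORT arrays in red. Pearson r over 16 arrays lies between -0.20 and 0.19, and the single Control arrays far below the rest are those of NME2.

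The named probes most like each gene were picked by their r on these same arrays, so a high r follows from the choice and is no test. Among the 921 probes with a gene name, the 5 with the highest r to each gene over the deviations of all 32 arrays were taken. For CINP these were RAN, a GTPase of nuclear transport (r = 0.72, with 0.51 in the LV and 0.80 in the IVS), CYBA, a subunit of the NADPH oxidases (r = 0.68), NDUFA12, a subunit of respiratory complex I (r = 0.67), SLC25A33, a mitochondrial pyrimidine nucleotide carrier (r = 0.65), and PSMB7, a proteasome subunit (r = 0.64). CYBA had r = 0.83 with CINP in the IVS against 0.10 in the LV, and all 5 had a higher r in the IVS. In the IVS 15.7% of all probes had an r over 0.5 with CINP, against 1.33% in the LV. Slide means were left in the deviations used for all 3 genes. CINP averaged 9.08 on slide 3 and 9.95 on slides 4 and 5, and the part of the slides in these r values was not tested.

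For MOBK1A the closest named probe was UROD, an enzyme of haem synthesis, with r = 0.72 in the LV and 0.72 in the IVS. No other of the 11314 probes had a higher r with MOBK1A than UROD. TXNDC17, a thioredoxin-like protein, had r = 0.59 over the 32 arrays, TXN, thioredoxin, 0.47, and PPP1R12A, a regulatory subunit of myosin phosphatase, 0.46. Of all probes, 2.37% had a higher r with MOBK1A than TXN, and 2.43% a higher one than PPP1R12A. For UROD and TXNDC17 the correlations in the LV and IVS differed by less than 0.1. UROD itself differed between CORT and Control by -0.05 in the LV and 0.11 in the IVS, where its unadjusted p was 0.511 (limma).

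For NME2 they were TXN by both of its probes (r = 0.69 and 0.65), H2AZ1, a histone variant (r = 0.68), the probe named AQP2, an aquaporin (r = 0.66), and PCNA, the sliding clamp of DNA replication (r = 0.65, with 0.59 in the LV and 0.73 in the IVS). 1 of the TXN probes was thus among the closest to both MOBK1A and NME2. H2AZ1 differed between CORT and Control by 0.11 in the LV and 0.30 in the IVS (limma, unadjusted p = 0.0686), and the PCNA probe by 0.17 and 0.15 (unadjusted p = 0.255 in the IVS). The highest r with any probe, named or not, was 0.79 for CINP and 0.86 for NME2.

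Few partners of these genes in their own pathways could be read. By the names in the files and the reference table, a list of 32 Hippo pathway genes had 1 probe, for RASSF1, and a list of 40 genes of nucleotide metabolism had 1, for UMPS, and neither had an unadjusted p under 0.05 in either tissue. The study's list for the LV holds 5 further genes of these lists, and 4 of them could be traced to a single probe by fold change and p in the way the 3 genes were. They are LATS2, the Hippo pathway kinase that MOB1 activates, HPRT1, an enzyme of purine salvage, UCKL1, a relative of the uridine-cytidine kinases, and CDK7, the kinase that activates other cyclin-dependent kinases. For GART, an enzyme of purine synthesis, 2 probes matched, so none was taken. With the fold change alone, 31 probes matched for LATS2, 49 for UCKL1, 113 for CDK7, 117 for HPRT1 and 176 for GART. These counts are higher than those of the 3 genes, so the names of the traced probes are less secure. No probe was named in either way for LATS1, STK3, STK4, NME1, NME3, NME4, NME6, NME7, CCNE1, ATR or ATRIP, or for MOB1A or MOB1B as such.

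LATS2 in the LV was lower in CORT, opposite to MOBK1A. Its level spanned 10.26 to 10.60 over the Control arrays (median 10.53) and 10.05 to 10.49 over the CORT arrays (median 10.24). All 8 CORT arrays were below the Control mean, and 5 were below every Control array. The difference was -0.25 (SE 0.07) on the log2 scale, described without a test because the LV comparison put LATS2 on the study's list and gave the probe its name. In the IVS the levels spanned 10.17 to 10.76 in Control (median 10.60) and 10.13 to 10.67 in CORT lambs (median 10.58), so the groups overlapped almost fully. The IVS difference was -0.03 (SE 0.10, 95% interval -0.25 to 0.19; limma, adjusted p = 0.996).

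The other traced genes were chosen by the LV in the same way. There HPRT1 differed by 0.14 (SE 0.06), UCKL1 by 0.19 (SE 0.07) and CDK7 by -0.17 (SE 0.07). In the IVS the differences were -0.06 for HPRT1 (SE 0.11), 0.05 for UCKL1 (SE 0.09) and -0.02 for CDK7 (SE 0.09), and none of the 3 passed (limma, adjusted p = 0.993, 0.993 and 0.997).

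Of a list of 67 cell cycle genes 11 could be tested by the names in the files, and 0 of 11 had an unadjusted p under 0.05 in the LV or in the IVS, where 3.85% and 3.59% of all probes did. Their median difference was 0.01 in the LV and 0.09 in the IVS, against 0.00 and -0.01 over all probes.

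CDK2, the kinase that CINP binds, had mean levels of 8.96 in Control and 8.92 in CORT lambs in the LV, a difference of -0.03 (SE 0.11). In the IVS its levels were 9.11 and 9.06, a difference of -0.06 (SE 0.14). CCNA2, cyclin A2, a partner of CDK2 in S phase, differed by 0.34 in both tissues (SE 0.22 in the LV and 0.20 in the IVS; limma, unadjusted p = 0.147 and 0.103). MYC, whose promoter NME2 is known to bind, differed by 0.01 in the LV (SE 0.18) and by -0.37 in the IVS (SE 0.23, unadjusted p = 0.118).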

How the data were processed

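Sheep arrays of 1 colour (Agilent) were hybridised with LV or IVS RNA from 8 lambs of each group. The authors deposited the scanner output (Agilent Feature Extraction 10.1.1.1, per the labels), which holds the mean intensity, median local background, processed signal and quality flags of each spot, and 1 matrix per tissue of log2 values, background corrected, quantile normalized and filtered for brightness in limma. Groups were taken from the sample titles. The RNA input and dye are stated differently in the labels and the methods, which changes no value here.

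For the values reported, intensity and background of all spots were corrected by normexp with an offset of 50, followed by quantile normalization of the 16 arrays per tissue (limma 3.58.1, statmod 1.5.0, R 4.3.3). Control and outlier spots were left out. A probe was tested when at least 8 arrays were more than 10% above the 95th percentile of the negative controls. CORT and Control were compared by lmFit and eBayes, two-sided, with Benjamini-Hochberg adjustment over all probes, and single genes also by an exact permutation test. The tissues were compared over 32 arrays normalized together, with slide as a random block (duplicateCorrelation, consensus 0.269). The fit was also run on simulated data with independent probes and no slide effect, which cannot show how it behaves with the slides of these arrays. Tables and figures were made in Python 3.11.15 and matplotlib 3.10.9.

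Through the files' own names and a RefSeq table of 35057 sheep genes, 1438 of the 15008 probes had a name, for 896 symbols. The number of arrays limits the precision. The 3 genes and all lists were chosen with earlier results of these data known, although the IVS values were not a criterion for the 3 genes. Named are the 3 genes, the 5 named probes most like each over 32 arrays, and of the pathway lists the genes closest in role or with an unadjusted p under 0.05. One of the probes that this rule names is not reported here. Further list genes in the study's LV table were traced by the same match. MYC, MB and the markers beside it were named after their values were seen. Alternatives changed the background correction, normalization, brightness limit, slide or replicate block, array weights, source of values, and the arrays and slides included. The weights with a slide block, the omission of slides and the tracing of list genes were chosen after seeing the data. So were the ratios of SDs within slides or without an array. The share by rho and the omission of an array for MOBK1A with NME2 were also chosen after seeing the data.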

Additional observations from a re-analysis of the deposited data

Results flagged for a closer look

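In 4 of 12 groups of 8 arrays (each gene in each group), 1 array stood apart from the others by Dixon's criterion, in which the gap to the nearest array is divided by the range of the group and set against the 95% limit. Chance marks about 5% of groups. NME2 accounted for 3 of the 4.

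NME2 in LV Control replicate 2 was at 14.35, with the next array at 14.88 and a gap of 0.630 of the range. NME2 in IVS Control replicate 3 was at 13.71, with the next array at 14.69 and a gap of 0.639. NME2 in IVS CORT replicate 2 was at 15.31, with the next array at 15.13 and a gap of 0.569. MOBK1A in IVS Control replicate 8 was at 8.95, with the next array at 8.40 and a gap of 0.657. The replicate numbers do not show whether an LV and an IVS array came from the same lamb.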

How the results depend on the processing

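The IVS differences kept their sign under all 12 alternatives and all 16 omissions of 1 array. CINP passed the unadjusted threshold of limma under cyclic loess (0.52, adjusted p = 0.989), a slide block (0.46, adjusted p = 0.638), a slide block with array weights (0.35, adjusted p = 0.806) and a replicate block (0.45, adjusted p = 0.796). The replicate numbers are not shown to pair Control and CORT lambs: same-number deviations correlated from -0.15 to 0.41 in the IVS (median 0.30, against 0.00 for different numbers) and from 0.01 to 0.32 in the LV (median 0.05), and 1 and 2 of 8 correlated best with their own number. Control and CORT arrays of the same number also shared a slide in both tissues, except number 5 in the IVS. Replicate number and slide can therefore hardly be told apart here. MOBK1A passed the unadjusted threshold with array weights (0.36, limma, adjusted p = 0.999) and with these and a slide block (0.39, adjusted p = 0.806). With 1 array left out, IVS differences ranged from 0.31 to 0.56 for CINP (3 of 16 passed: without Control replicate 5 or 7 or CORT replicate 2), from 0.19 to 0.35 for MOBK1A (1 passed) and from 0.12 to 0.33 for NME2 (0 passed), and LV differences from 0.33 to 0.49, 0.24 to 0.41 and 0.19 to 0.31. NME2 in the IVS was 0.16 without slide 4 and 0.45 without slide 5. The count of IVS probes at an unadjusted p under 0.05 rose from 419 to 879 with a slide block, 639 with a replicate block and 1451 without slide 5 (1 of them after adjustment), and fell to 193 without slide 3. The LV count rose from 444 to 744 with array weights. Of the cell cycle genes, 1 passed in the LV without background correction and 2 in the IVS without slide 5. Tissue differences passed under no alternative run. The r of CINP with NME2 in the LV moved from -0.20 to -0.45 under cyclic loess, and that of MOBK1A with NME2 from 0.02 to 0.28 with the processed signal. The causes were not tested. With 8 lambs a group, the IVS intervals include differences from below 0 to 0.60 or more, so an absent effect is not shown.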

Other observations

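Arrays of the LV and IVS that carry the same treatment and replicate number were also set side by side, after removal of the group means. The r over 16 numbers was -0.64 for CINP (Spearman rho -0.67), -0.27 for MOBK1A (rho -0.18) and 0.27 for NME2 (rho 0.45). Without the 2 numbers farthest from the median it was -0.53, 0.18 and 0.34. Over all probes, same-number LV and IVS arrays correlated from -0.21 to 0.43 in Control and from -0.14 to 0.64 in CORT lambs. The median was 0.00 in Control and 0.20 in CORT, against -0.03 and -0.04 for different numbers, and 2 and 4 of 8 arrays correlated best with their own number. The labels do not say whether a number marks the same lamb in both tissues. The numbers also follow the slides. In the LV, numbers 1 to 4 lay on slide 1 and 5 to 8 on slide 2. In the IVS, numbers 1 and 2 lay on slide 3. CINP averaged 9.92 on slide 1 and 9.61 on slide 2, and 9.08 on slide 3 against 9.95 on slides 4 and 5. Slide means were not removed here, and the part of the slides in these values was not tested.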
